A study of Mus musculus with 4 samples.

Results

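Phase II conjugating enzymes were followed through single nucleus RNA sequencing (snRNA-seq) of mouse kidney cortex. They were chosen by gene symbol alone, as every row of the expression table named as a glutathione S-transferase (GST; families Gsta, Gstk, Gstm, Gsto, Gstp, Gstt, Gstz and microsomal Mgst), a UDP-glycosyltransferase (UGT) or a cytosolic sulfotransferase (SULT). The rule found 46 genes among 19609 gene rows. Of these, 22 reached a value of at least 0.5 in any cluster of any mouse and are reported with values. The table gives cluster means, with a separate column for each of 23 clusters in each of 4 mice. Each of its 92 columns sums to 10000, so a value of 1 stands for 1 of 10000 counted transcripts.

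The study asked how the transcription factor KLF6 acts early in injury of the proximal tubule (PT), the nephron segment that takes up most of the filtrate. There was 1 male mouse of mixed strain in each of 4 groups. Control mice carried the human KLF6 transgene under a tetracycline-responsive promoter alone (genotype TRE-hKLF6) and were either untreated (control) or given aristolochic acid I (control + AAI). Mice of genotype CAG-rtTA,TRE-hKLF6 also carried the reverse transactivator under the ubiquitous CAG promoter, which induces the transgene in all cell types on doxycycline. They were likewise untreated (hKLF6OE) or given AAI (hKLF6OE + AAI). The methods put all mice on doxycycline, describe a vehicle injection for mice without AAI, and collect the kidneys on the day after a single AAI injection. AAI is a plant nitroarene that the PT takes up and that forms DNA adducts once its nitro group is reduced. Ages were not given in the sources used here. The table had 1 row for Klf6, the mouse gene, with mean values in normal PT of 0.215 in control, 0.406 in control + AAI, 0.137 in hKLF6OE and 0.327 in hKLF6OE + AAI. It held no row for the human transgene, so overexpression itself was not checked here.

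Conjugation joins a polar group to a foreign compound, hormone or lipid, often after oxidation or reduction has exposed a reactive site, and so prepares it for excretion. GSTs add glutathione, UGTs add a sugar from a UDP-sugar donor, and SULTs add sulfate from the donor PAPS. The PT is the main site of these reactions in the kidney, beside its organic anion transporters. Some members serve endogenous pathways instead: Gstz1 is the maleylacetoacetate isomerase of tyrosine breakdown, and Ugt8a makes galactosylceramide. Sulfotransferases have also been studied for acting on N-hydroxylated products of AAI.

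With 1 mouse per group, a difference between genotypes or treatments has no spread between mice and no test, and it describes these 4 mice. Comparisons between clusters were made within each mouse and are given as paired differences in 4 or 2 mice, also without a test, since the clusters were defined on the same values. Differences are given as differences in log2(value + 1), which understates the change of genes with low values. A gene entered a comparison where its larger side was at least 0.5 in every mouse or pair compared. It was called higher or lower where every one of those mice or pairs differed by at least 0.2 in the same direction. The share of all genes so called is printed beside the members' counts as the background. The table does not give the number of nuclei behind each column or their depth, so counting error could not be given. The share of genes at exactly 0 ranged from 15.1% to 31.31% in normal PT columns and from 18.06% to 63.44% in columns outside the PT.

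Cluster names followed the study's order and were checked against markers. The sodium-glucose and phosphate transporters Slc5a2, Slc5a12 and Slc34a1 were highest in the PT-S1-S2 clusters, Slc7a13 and Cyp7b1 in PT-S3-2, and Lrp2 and Keg1 in PT-S3-1. The PT markers Slc22a6 and Kap were instead highest in InjuredPT-A, with means over the mice of 4.756 and 190.7. MC came next for both, at 3.32 and 149.6. Labels of podocytes, DCT, principal cells, ascending limb and both kinds of intercalated cells carried their markers. Cluster EC-1 was an exception, as it held 17.31 of the PT marker Slc5a12 and only 3.803 of the endothelial marker Flt1, against 22.74 of Flt1 in EC-2. In the cluster labelled MC (mesangial cells), Pdgfrb was the highest of all clusters at 2.164 but Gata3 was not.

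The reported members covered most families. They were 3 of 4 Gsta, 3 of 6 Gstm, 2 of 3 Gstt, the single Gstz, 2 of 3 Mgst, 1 of 2 Ugt1, 2 of 5 Ugt2, both Ugt3, the single Ugt8, 3 of 5 Sult1, 1 of 5 Sult2 and the single Sult5. No member of Gstk (1 gene), Gsto (2 genes), Gstp (2 genes), Sult3 (1 gene) or Sult6 (2 genes) reached 0.5. Just below that limit lay Sult2a4 with a highest value of 0.482, Sult1b1 with 0.459, Gsto1 with 0.444 and Gstp3 with 0.434. Just above it lay Gstm2 with 0.664 and Sult1a1 with 0.728.

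In normal PT, taken as the unweighted mean of the 5 normal PT clusters, 7 members had a mean of at least 2 over the 4 mice in some cluster and a PT-wide level well above 1 in most mice. Ugt2b38, a glucuronosyltransferase of the steroid-conjugating Ugt2b family, measured 4.64 in control, 3.56 in control + AAI, 3.26 in hKLF6OE and 2.58 in hKLF6OE + AAI. Ugt3a2 measured 4.05, 3.99, 2.71 and 3.09 in the same order. The control genotype was above the hKLF6OE genotype for both genes, with and without AAI.

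Ugt8a measured 2.57 in control, 3.30 in control + AAI, 2.06 in hKLF6OE and 2.69 in hKLF6OE + AAI. Ugt3a1, which transfers N-acetylglucosamine, measured 2.04, 1.30, 1.66 and 0.752 in that order. Gstt2, a theta-class GST, measured 2.60, 2.04, 2.74 and 1.11. For Ugt3a1 and Gstt2 the hKLF6OE + AAI mouse was the lowest of the 4, and for Ugt8a the control + AAI mouse was the highest.

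Gstz1 was the steadiest of these genes, with 2.20 in control, 1.92 in control + AAI, 2.25 in hKLF6OE and 1.83 in hKLF6OE + AAI. Sult1d1, a sulfotransferase of phenols and catecholamines, measured 1.37, 2.45, 2.21 and 3.53, so that the hKLF6OE + AAI mouse was highest and the control mouse lowest. Since pre-mRNA was counted, long genes can collect more transcripts, and levels were compared between genes only per kb of genomic span. On that scale Gstt2 (0.337 per kb), Ugt2b38 (0.246 per kb), Sult1d1 (0.166 per kb), Gstm1 (0.131 per kb) and Gstz1 (0.117 per kb) stood above Gstm5 (0.100 per kb) and Ugt3a2 (0.0978 per kb). Ugt8a, with a span of 73.35 kb, had 0.0362 per kb.

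**Figure D1:**
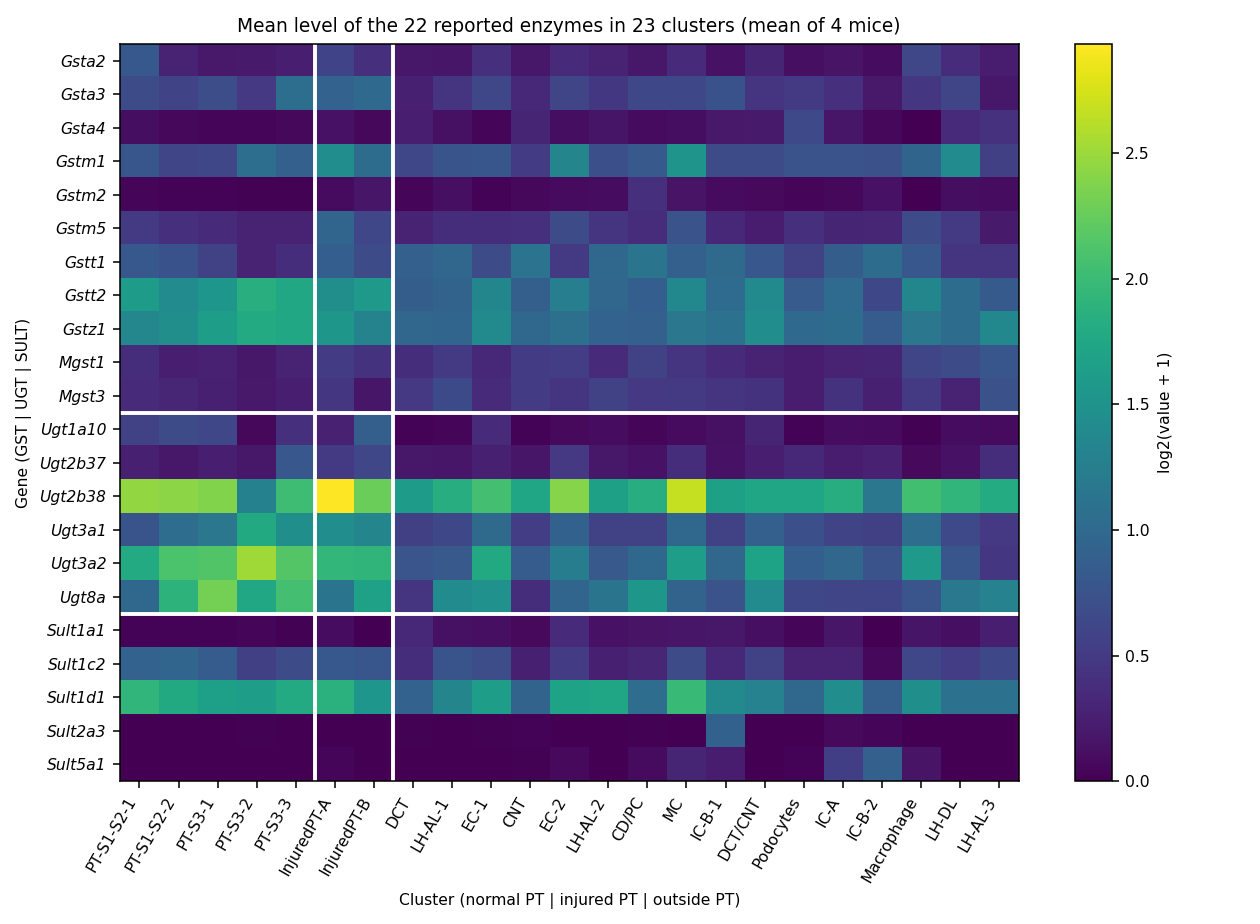
Heatmap of the mean over 4 mice, as log2(value + 1), of the 22 reported genes (rows, GST above UGT above SULT) in 23 clusters (columns, normal PT, then injured PT, then clusters outside the PT). Within its row, Ugt2b38 is brightest in InjuredPT-A, Ugt3a2 and Ugt3a1 in PT-S3-2 and Ugt8a in PT-S3-1, and Sult2a3 and Sult5a1 are nearly dark except in intercalated cell clusters. The InjuredPT-A mean of Ugt2b38 includes 9.02 (control) and 8.08 (hKLF6OE), columns with 62.62% and 40.85% of genes at 0. With AAI it was 4.98 and 4.50.

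Along the PT, 4 of the 11 members compared were higher in the 3 PT-S3 clusters than in the 2 PT-S1-S2 clusters in all 4 mice, and 1 was lower. Of all 3637 genes compared, 10.4% were higher and 12.4% lower. The clusters were defined on these same expression values, so these differences describe the clusters. The 4 higher genes were Ugt3a1, Ugt8a, Gstz1 and Ugt3a2, and the lower gene was Ugt2b38.

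Ugt3a1 differed most in the control mouse, by 0.79, from 1.12 in PT-S1-S2 to 2.66 in PT-S3. In the other mice the difference was 0.43 to 0.53, and the mean in PT-S3-2 was 2.43 against 0.700 in PT-S1-S2-1. Its neighbour Ugt3a2 was also highest in PT-S3-2, with a mean of 4.70 (range over mice 3.38 to 5.80), and lowest of the normal PT clusters in PT-S1-S2-1, at 2.47. Its S3 difference lay between 0.24 and 0.41 in the 4 mice.

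Ugt8a was highest in PT-S3-1 at 4.00 (range 2.72 to 5.22) and lowest of the normal PT clusters in PT-S1-S2-1 at 0.992 (range 0.784 to 1.30), without overlap between the mice. The segments were not cleanly divided, since PT-S1-S2-2 at 2.72 lay above PT-S3-2 at 2.40 on average and in 3 of 4 mice. The tyrosine-pathway enzyme Gstz1 differed by 0.26 to 0.43, from a mean of 1.56 in PT-S1-S2-1 to 2.48 in PT-S3-2. Ugt2b38 went the other way. It measured 4.49 in PT-S1-S2-1 and 1.45 in PT-S3-2, where it was the second lowest of all 23 clusters, although PT-S3-1 held 4.21. Its S3 difference was -0.23 in control and -0.25 in hKLF6OE, and -0.80 in control + AAI and -0.70 in hKLF6OE + AAI. In control, PT-S3-1 (5.52) and PT-S3-3 (5.37) were above PT-S1-S2-1 (5.19) and PT-S1-S2-2 (5.18), and only PT-S3-2 was lower, at 1.95.

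For some members the leading PT cluster depended on the mouse. Gsta2, an alpha-class GST, measured 1.52 in control, 0.377 in control + AAI and 0.991 in hKLF6OE in PT-S1-S2-1, each the highest of that mouse's normal PT clusters, but in hKLF6OE + AAI it was 0.110 there and 0.226 in PT-S3-3. Gsta3 led in PT-S3-3 in the AAI-treated mice, at 1.49 and 1.87, whereas without AAI it was 0.475 and 0.486 there and 0.729 and 0.626 in PT-S1-S2-1. Ugt2b37 measured 1.65 in control, 0.598 in control + AAI and 0.637 in hKLF6OE in PT-S3-3, and 0.0897 in hKLF6OE + AAI, below the 0.102 of PT-S1-S2-1. Ugt1a10 averaged 0.0445 in PT-S3-2 and 0.326 to 0.596 in the other 4 normal PT clusters.

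Genes that supply the donor molecules were compared along the same axis. Of 11 genes for cofactor supply, 8 could be compared, and 5 were higher in PT-S3 in all 4 mice, with 0 lower, beside 10.4% higher and 12.4% lower among all genes. They were Ugdh, which makes UDP-glucuronate, Papss2, which makes PAPS, and the glutathione synthesis genes Gclc, Gclm and Gss. Among 17 other conjugating enzymes, the 8 compared gave 4 higher (Tpmt, Acsm1, Acsm3 and Acsm5) and 1 lower (the glycine acyltransferase Glyat), against the same shares. Of 7 mercapturate genes held, 4 were compared, and Ggt1, which removes glutamate from glutathione conjugates, and the aminoacylase Acy1 were higher.

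Outside the PT most of these genes remained detectable, and so did PT markers. Over the 16 clusters outside the PT, the median level of 9 PT markers ranged from 10.36% of normal PT for Cyp7b1 to 118.7% for Kap, with Slc34a1 at 23.25%, Lrp2 at 18% and Slc5a12 at 15.8%. None of the 9 markers was at 0 in the summed normal PT levels. How much of a member's value outside the PT came from PT RNA was not tested. Against that scale, Ugt1a10 (14.72%), Ugt3a2 (25.91%), Ugt8a (35.03%) and Ugt3a1 (37.07%) lay nearest to the markers Slc34a1, Lrp2 and Slc5a12.

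Gstt2 (47.09%), Sult1c2 (49.4%), Gstz1 (51.39%), Gsta2 (54.56%), Ugt2b37 (56.5%), Gsta3 (58.94%), Sult1d1 (62.4%) and Ugt2b38 (71.94%) were intermediate. Gstm1 (90.86%) and Gstm5 (104.7%) were about as high outside the PT as in it. Mgst1 (161.8%), Gstt1 (173.3%) and the microsomal Mgst3 (183.7%) were higher outside, in 15, 13 and 14 of the 16 clusters. Kap and the organic anion transporter Slc22a6 (63.86%) also stood well above the other PT markers on this scale.

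**Figure D2:**
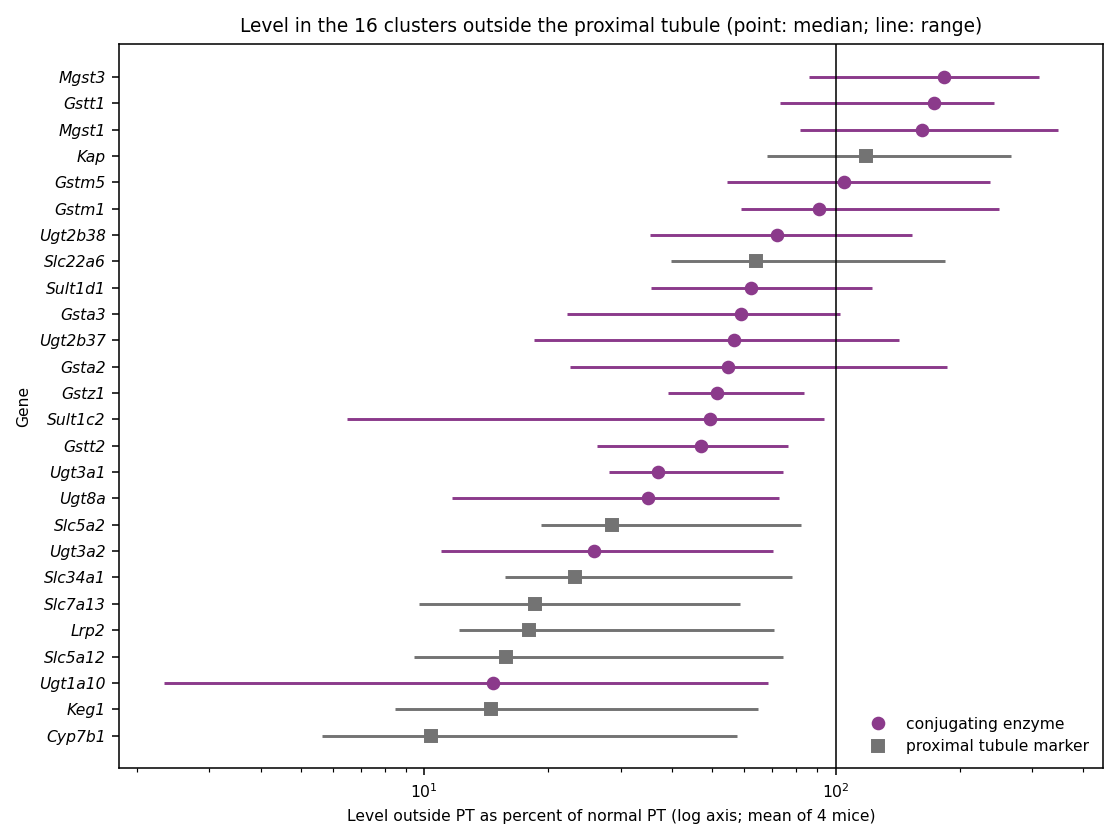
Level in the 16 clusters outside the PT as a percent of normal PT (log axis, mean of 4 mice), with the median as a point and the range as a line, for the 17 members with a normal PT mean of at least 0.2 and for 9 PT markers. Mgst1, Mgst3 and Gstt1 lie to the right of the line that marks the normal PT level, and Ugt1a10 lies among the markers at 14.72%.

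The remaining 5 members had their highest mean in a cell type outside the PT, with normal PT means over the 4 mice between 0.00312 for Sult5a1 and 0.0488 for Gsta4. Sult2a3, a hydroxysteroid sulfotransferase, was found in IC-B-1, a type B intercalated cluster, at 1.03 in control, 0.831 in control + AAI, 0.536 in hKLF6OE and 1.14 in hKLF6OE + AAI. No other cluster had a mean above 0.0489. Sult5a1 was highest in IC-B-2 with a mean of 0.872, but its values there ran from 0.224 in control to 2.34 in hKLF6OE + AAI, so that 1 mouse carried most of that mean. In the type A cluster IC-A it lay between 0.259 and 0.855.

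Gsta4, which conjugates the lipid peroxidation product 4-hydroxynonenal, was highest in podocytes, at 0.435, 0.960, 0.402 and 0.451 in the 4 mice in the order used above. Gstm2 was highest in collecting duct principal cells, with 0.664 in hKLF6OE and 0.208 to 0.225 in the other 3 mice. Sult1a1, the main phenol sulfotransferase, averaged 0.284 in EC-2 and 0.251 in DCT, where its range over the mice was narrow (0.240 to 0.265). Gstm1 was highest in MC, at 1.15, 3.35, 1.32 and 1.68, with the control + AAI mouse above the others. It also averaged 1.67 in the descending limb and 1.53 in EC-2. MC was also the cluster with the highest mean of Sult1d1, at 2.93. Among clusters outside the PT, MC had the highest levels of the PT markers Kap (267.1% of normal PT) and Slc22a6 (184.6%). Gstt1 was highest in CD/PC (mean 1.18, range 1.02 to 1.33) and CNT (mean 1.18, range 0.927 to 1.39), with normal PT at 0.331 to 0.603.

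In InjuredPT-A, members differed from normal PT in opposite directions. Within each AAI-treated mouse, 3 of the 12 members compared were higher in InjuredPT-A in both mice and 5 were lower. Of all 5008 genes compared, 43.3% were higher and 27.0% lower. The median difference of the members was -0.28 in control + AAI and -0.20 in hKLF6OE + AAI, against 0.19 and 0.15 for all genes. After each mouse was centred on that median of all genes, 0 members were higher and 7 lower, beside 29.6% and 35.3% of all genes.

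The lower members were 3 sugar transferases and 2 sulfotransferases. In control + AAI, Ugt8a measured 1.08 in InjuredPT-A against 3.30 in normal PT, and in hKLF6OE + AAI 1.20 against 2.69, which are differences of -1.05 and -0.74. Ugt3a2, which had the largest negative difference in control + AAI, measured 1.36 against 3.99 and 1.95 against 3.09, differences of -1.08 and -0.47. The sulfotransferases Sult1d1 (1.06 against 2.45 and 2.16 against 3.53, differences of -0.75 and -0.52) and Sult1c2 (0.348 against 0.820 and 0.357 against 0.641) were lower as well. Ugt1a10 completed the group, at 0.368 against 0.762 and 0.295 against 0.523. All 5 remained lower after centring, and Gstt2 and Gstz1 joined them.

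The higher members were Ugt2b38, Gstm1 and Mgst1. Ugt2b38 measured 4.98 in InjuredPT-A against 3.56 in normal PT of control + AAI, and 4.50 against 2.58 in hKLF6OE + AAI, differences of 0.39 and 0.62. In control + AAI the normal clusters PT-S1-S2-1 (5.20) and PT-S1-S2-2 (5.07) were above InjuredPT-A. In hKLF6OE + AAI they were below it, at 3.82 and 3.48. Gstm1, a mu-class GST, measured 1.39 against 0.885 and 1.31 against 0.746. Mgst1, a membrane-bound GST that also reduces lipid peroxides, measured 0.746 against 0.391 and 0.508 against 0.251. None of the 3 passed in both mice after centring, where Ugt2b38 was at 0.195 and 0.47.

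Other measures were set beside this split, as called before centring. The 3 higher genes had levels outside the PT of 71.94% to 161.8% of normal PT, while the 5 lower genes had 14.72% to 62.4%. These ranges did not overlap, but the split and the percentages are both taken relative to normal PT. A high normal PT value lowers both, so the separation is partly built in and no conclusion was drawn from it. The genomic spans of the higher genes were 5.719 kb, 14.26 kb and 16.44 kb, and those of the lower genes ran from 14.38 kb (Sult1d1) to 163.6 kb (Ugt1a10), so the ranges overlapped. The summed level of the 9 PT markers was 155.8 in InjuredPT-A against 223.4 in normal PT of control + AAI, and 160.2 against 185.2 in hKLF6OE + AAI, with 0 of the 9 at 0. Without AAI it was 375.2 against 265.5 in control and 432.1 against 242 in hKLF6OE. The sum is of unscaled levels, so it leans on abundant markers, among them Kap, whose mean was highest in InjuredPT-A. The part of any of these in the result was not tested. In mice without AAI this cluster held Ugt2b38 at 9.02 (control) and 8.08 (hKLF6OE), but 62.62% and 40.85% of genes were at 0 in those columns, against 22.53% and 22.19% in the AAI-treated mice.

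InjuredPT-B was compared in the same way. Of 12 members compared, 3 were higher in both AAI-treated mice and 4 were lower, against 23.4% and 13.1% of all 4148 genes. The median difference of the members was 0.00 in control + AAI and -0.22 in hKLF6OE + AAI, against 0.11 and 0.10 for all genes. After centring, 1 member was higher and 6 were lower, beside 9.88% and 18.1% of all genes. InjuredPT-A and InjuredPT-B were read against the same normal PT values of the same 2 mice.

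Ugt3a2 had the largest negative difference in both mice, at 2.05 against 3.99 in control + AAI and 1.16 against 3.09 in hKLF6OE + AAI, differences of -0.71 and -0.92. Sult1d1 (-0.29 and -0.56), Ugt8a (-0.25 and -0.58) and Ugt3a1 (-0.40 and -0.25) were also lower, and all 4 stayed lower after centring. The genes called higher were Ugt1a10, Gstt1 and Gsta3, of which Gstt1 was too low to be compared in InjuredPT-A, as was Mgst1 in InjuredPT-B. Ugt1a10, which conjugates phenols with glucuronate, measured 1.79 against 0.762 and 0.873 against 0.523. Gstt1 measured 1.04 against 0.603 and 0.850 against 0.419, and Gsta3 1.29 against 0.854 and 1.32 against 0.739. The normal cluster PT-S3-3 held more Gsta3 than InjuredPT-B in both mice, at 1.49 and 1.87. With the PT-S3 clusters as the reference, 2 members were called higher instead of 3. After centring Gstt1 alone was called higher, while Gsta3 was at 0.196 and 0.312 and Ugt1a10 at 0.554 and 0.195. The summed PT marker level was 137.8 in InjuredPT-B against 223.4 in normal PT of control + AAI and 96.33 against 185.2 in hKLF6OE + AAI, and its part in these differences was not tested.

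**Figure D3:**
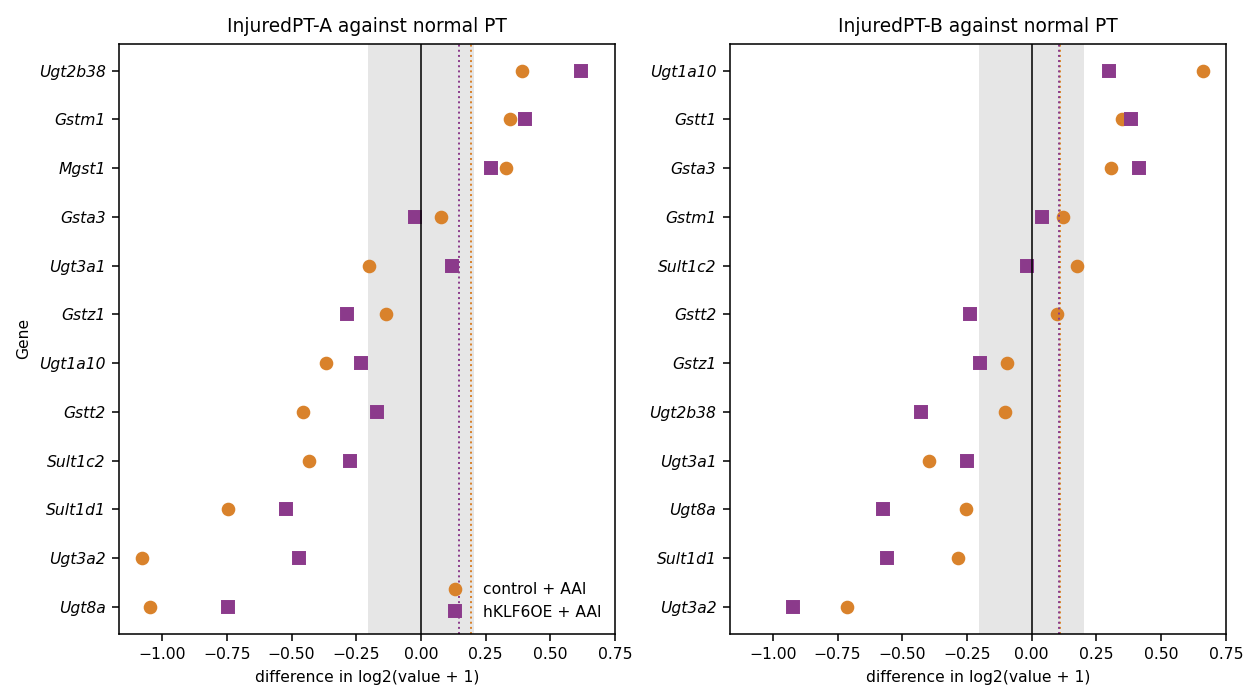
Difference in log2(value + 1) between each injured PT cluster and the mean of the normal PT clusters of the same mouse, for the 12 members compared, in control + AAI (circles) and hKLF6OE + AAI (squares). The grey band spans differences under 0.2 and the dotted lines mark the median of all genes in each mouse. In InjuredPT-A, Ugt8a and Ugt3a2 lie farthest left in control + AAI and Ugt8a and Sult1d1 in hKLF6OE + AAI, and in InjuredPT-B Ugt1a10, Gstt1 and Gsta3 lie to the right of the band in both mice.

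Genes that serve conjugation were read against the same background. In InjuredPT-A, where 43.3% of all genes were higher and 27.0% lower, 1 of 9 cofactor genes compared was higher, the glutathione reductase Gsr, and 3 were lower, namely Papss2, Gclc and Gss. Papss2 measured 1.45 against 3.18 in control + AAI and 1.53 against 2.28 in hKLF6OE + AAI. In InjuredPT-B, where 23.4% of all genes were higher and 13.1% lower, 3 of 9 were higher, Ugdh, Gclc and Gsr, and 0 were lower. Ugdh measured 1.81 against 0.836 and 1.35 against 0.980.

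Among the other conjugating enzymes, 2 of 9 were higher in InjuredPT-A (Nat8 and Inmt) and 5 were lower (Glyat, Acsm1, Acsm2, Acsm3 and Acsm5). The Acsm enzymes activate medium-chain and aromatic acids for glycine conjugation, and Acsm1 was at 1.14 against 5.83 and 0.961 against 4.55. In InjuredPT-B the same 4 Acsm genes were lower, of 8 compared. Of the regulators, InjuredPT-A had 2 of 4 higher and the other two lower, and InjuredPT-B had 1 of 3 higher and 2 lower. Nfe2l2, which drives antioxidant response genes, was higher and Ppara and Hnf4a were lower in both injured clusters. Nfe2l2 measured 5.46 in InjuredPT-A, 3.80 in InjuredPT-B and 1.99 in normal PT of control + AAI. Of 4 genes for AAI reduction and oxidation compared in InjuredPT-A, 0 were higher and 2 lower (Por and Akr1c21). In InjuredPT-B, of 5 compared, 1 was higher (Akr1c19) and 3 were lower (Por, Akr1c14 and Akr1c21). The shares of all genes were again 43.3% and 27.0% for InjuredPT-A and 23.4% and 13.1% for InjuredPT-B. In control + AAI, Por measured 3.47 in InjuredPT-A and 3.31 in InjuredPT-B, against 4.51 in normal PT.

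AAI was also compared with no treatment inside the normal PT clusters, within each genotype. Of 12 members compared, 4 were higher with AAI in both genotypes and 3 were lower, against 7.66% and 5.83% of all 3892 genes. Their median difference was 0.14 in the control genotype and -0.05 in the hKLF6OE genotype, against 0.01 and 0.05 for all genes. After centring, 2 members were higher (Sult1d1 and Ugt8a) and 3 lower (Ugt2b38, Gstt2 and Ugt3a1), beside 6.35% and 7.01% of all genes. The summed PT marker level was 265.5 in control against 223.4 with AAI and 242 in hKLF6OE against 185.2 with AAI.

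Sult1d1 showed the largest differences that both genotypes shared. It went from 1.37 to 2.45 in the control genotype and from 2.21 to 3.53 in the hKLF6OE genotype, differences of 0.54 and 0.50. It was higher by at least 0.2 in 4 of 5 normal PT clusters of either genotype, with PT-S3-2 as the exception at 0.08 and 0.15. Ugt8a went from 2.57 to 3.30 and from 2.06 to 2.69, both a difference of 0.27, which came mostly from PT-S3-1 (0.54 and 0.64) and PT-S1-S2-2 (0.30 and 0.29).

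Gsta3 went from 0.516 to 0.854 and from 0.480 to 0.739. In PT-S3-3 it went from 0.475 to 1.49 and from 0.486 to 1.87, while in PT-S1-S2-2 it stayed at 0.574 and 0.572 in the control genotype. In the control genotype PT-S3-1 also rose past 0.2 (0.47), but in the hKLF6OE genotype PT-S3-3 alone rose past it, with PT-S3-1 at 0.08, PT-S3-2 at 0.10 and PT-S1-S2-1 at -0.26. Ugt1a10 went from 0.00228 to 0.762 and from 0.304 to 0.523, and its control value is described separately.

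Ugt3a1 and Gstt2 were lower in nearly every cluster. Ugt3a1 went from 2.04 to 1.30 in the control genotype and from 1.66 to 0.752 in the hKLF6OE genotype, with negative differences in all 5 normal PT clusters of both and in 15 and 16 of the 16 clusters outside the PT. Gstt2 went from 2.60 to 2.04 and from 2.74 to 1.11. Its difference was -0.25 in the control genotype and -0.82 in the hKLF6OE genotype, and whether the genotypes differ could not be tested with 1 mouse each. It was likewise negative in all 5 normal PT clusters of both and in 16 and 15 of the 16 clusters outside the PT. The clusters of a mouse share a library and are not replicates. The part of PT RNA in the differences outside the PT was not tested. Ugt3a2, which lies beside Ugt3a1 on chromosome 15, was nearly level at -0.02 and 0.14.

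Ugt2b38 went from 4.64 to 3.56 and from 3.26 to 2.58, and most of this lay in PT-S3-3. There it measured 5.37 without and 2.02 with AAI in the control genotype and 3.63 and 1.19 in the hKLF6OE genotype, a difference of -1.08 in both. In PT-S1-S2-1 the values were 5.19 and 5.20 in the control genotype and 3.75 and 3.82 in the hKLF6OE genotype. Its paralog Ugt2b37 was also lower in PT-S3-3, at 1.65 against 0.598 and 0.637 against 0.0897, although its mean over normal PT was too low in the hKLF6OE genotype to enter this comparison. Gsta2 was lower in PT-S1-S2-1, from 1.52 to 0.377 and from 0.991 to 0.110.

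Mgst1 did not reach the level needed for the comparison but had a consistent sign. It went from 0.0772 to 0.391 in normal PT of the control genotype, with a difference of at least 0.2 in all 5 clusters, and from 0.117 to 0.251 in the hKLF6OE genotype, with 1 of 5 clusters past 0.2. Outside the PT it was positive in 15 of 16 clusters in each genotype. Gstt1 differed in sign between the genotypes, from 0.331 to 0.603 in the control genotype and from 0.596 to 0.419 in the hKLF6OE genotype, and this difference was not tested.

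**Figure D4:**
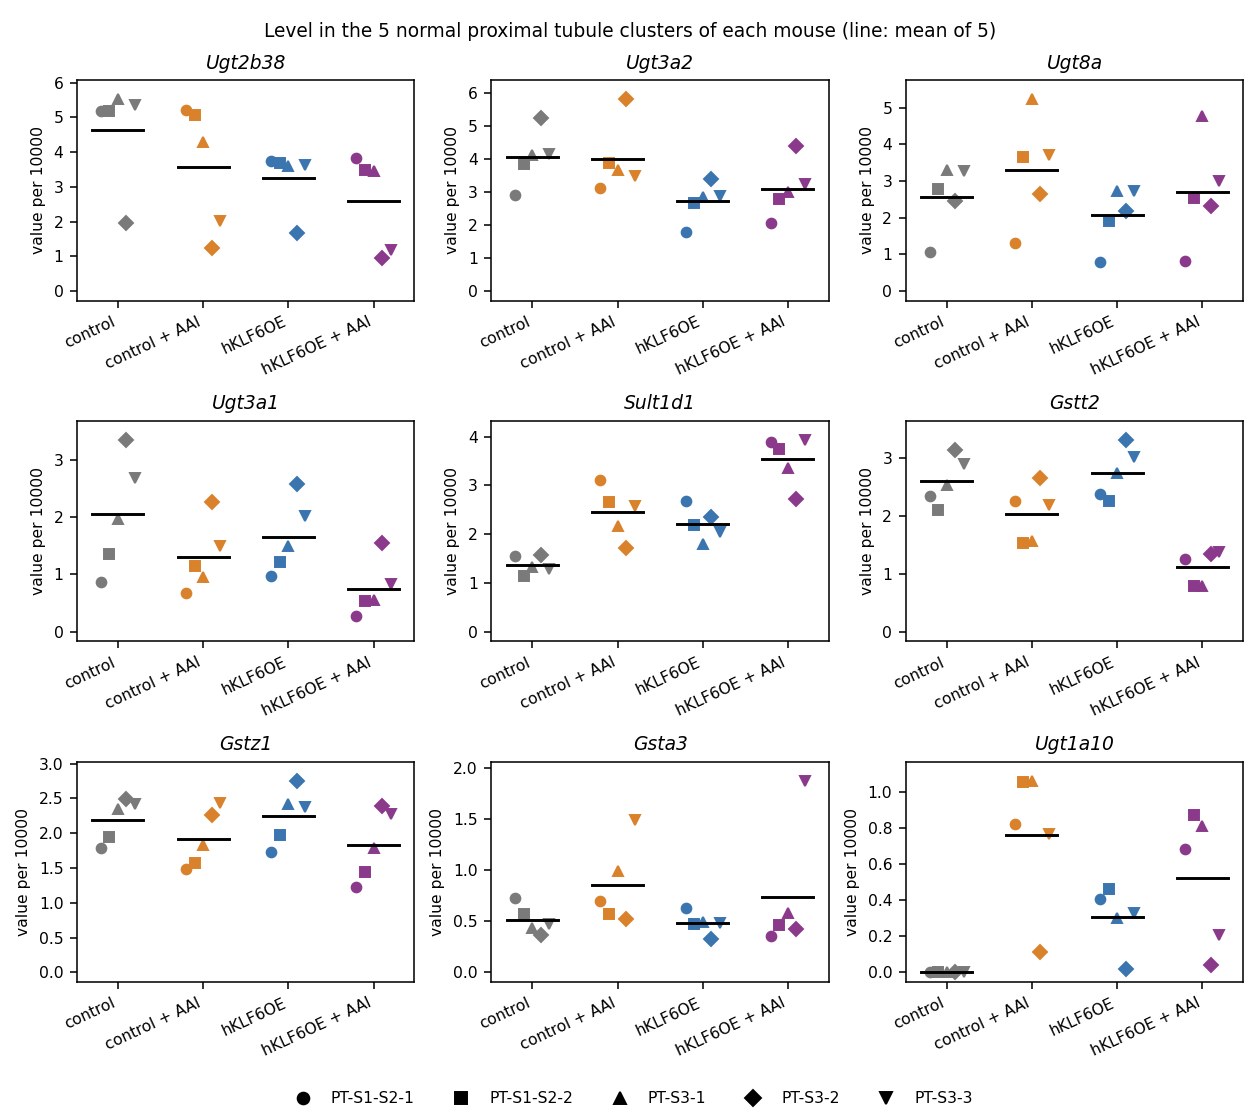
Value per 10000 transcripts (vertical axis) of 9 members in the 5 normal PT clusters of each mouse (horizontal axis, 1 mouse per group, marker shape for the cluster, line for the mean of 5). Sult1d1 is lowest in control (mean 1.37) and highest in hKLF6OE + AAI (mean 3.53), Gstt2 and Ugt3a1 are lowest in hKLF6OE + AAI, Gsta3 stands out in PT-S3-3 of the AAI-treated mice and Ugt1a10 lies near 0 in control.

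**Figure D5:**
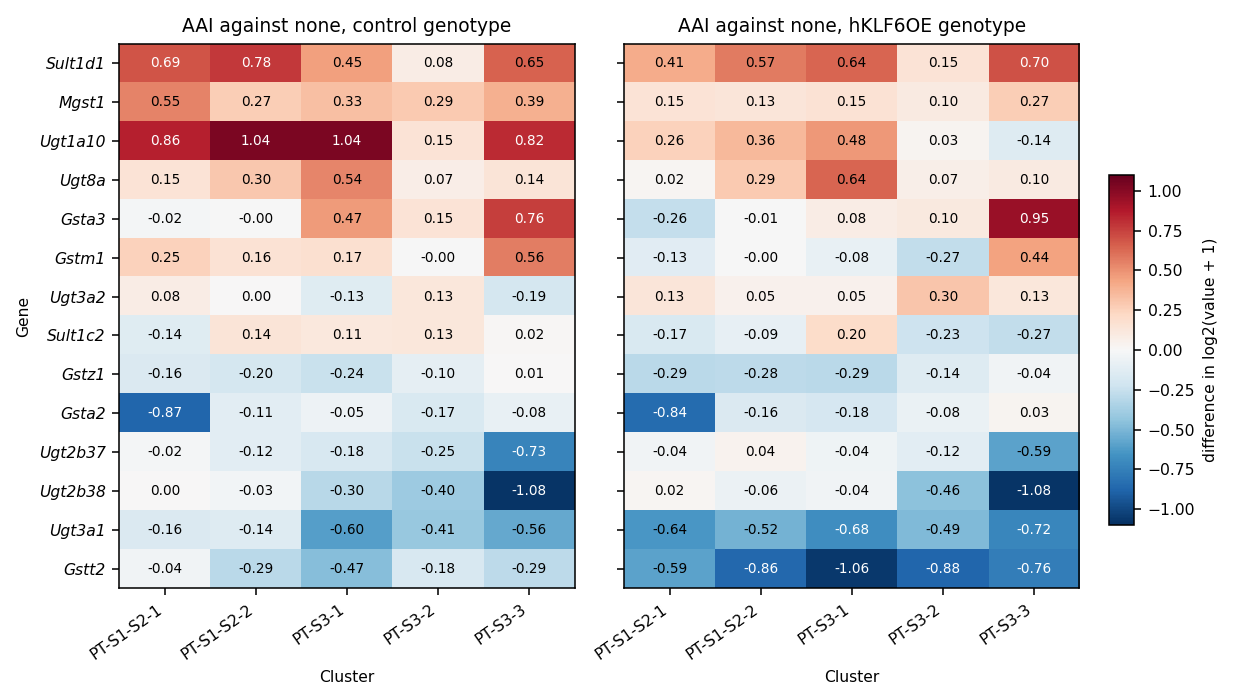
Heatmap of the difference in log2(value + 1) between AAI and no treatment in each of the 5 normal PT clusters (columns) for 14 members (rows), in the control genotype (left) and the hKLF6OE genotype (right). Sult1d1 is positive in all 10 cells, Ugt3a1 and Gstt2 are negative in all 10, and Ugt2b38 is near 0 in the PT-S1-S2 clusters and -1.08 in PT-S3-3 of both genotypes.

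In the same comparison, AAI-reducing and antioxidant genes were examined beside the members, against the same 7.66% of all genes higher and 5.83% lower. Nqo1, a quinone reductase that also reduces the nitro group of AAI, measured 0.384 without and 0.894 with AAI in the control genotype and 0.411 and 0.994 in the hKLF6OE genotype. Por, the electron donor of microsomal cytochromes, measured 3.41 and 4.51, and 3.06 and 4.32. Of 4 genes of that list compared, these 2 were higher and Akr1c21 was lower. Nfe2l2 (1.21 and 1.99, 1.07 and 1.83) and Ppara (5.10 and 10.7, 4.92 and 8.02) were higher among 4 regulators compared, and none was lower. Of 9 cofactor genes only Gss was called, as higher. Among 9 other conjugating enzymes 0 were higher and 3 were lower, the methyltransferase Inmt (1.44 and 0.556, 1.95 and 0.213) with Acsm2 and Acsm3. The sulfatase Arsb was higher and the mercapturate gene Acy3 lower.

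The promoters of the members called with AAI were examined for motifs, since these genes moved in both genotypes. RefSeq windows were held for 19 of the 22 reported members, and not for Gstt2, Gsta4 and Ugt3a2. The 250 bases before the RefSeq start are printed 5′ to 3′ on the strand of the gene, from build GRCm38.p6, for the 4 higher and 2 of the 3 lower members. RefSeq and GENCODE starts can differ, and the window of Ugt3a1 lies wholly inside the longer GENCODE span of that gene given further on. Capitals mark a match, on either strand, to the antioxidant response element core TGACNNNGC, the xenobiotic response element core GCGTG, the GC box GGGCGG or the palindromic HNF1 element, with at most 2 mismatches to its consensus. Gsta3 lies at chr1:21240335-21240584 (plus strand), Ugt1a10 at chr1:88055161-88055410 (plus), Ugt8a at chr3:125938653-125938902 (minus), Sult1d1 at chr5:87569007-87569256 (minus), Ugt3a1 at chr15:9279579-9279828 (plus) and Ugt2b38 at chr5:87424204-87424453 (minus).
Gsta3: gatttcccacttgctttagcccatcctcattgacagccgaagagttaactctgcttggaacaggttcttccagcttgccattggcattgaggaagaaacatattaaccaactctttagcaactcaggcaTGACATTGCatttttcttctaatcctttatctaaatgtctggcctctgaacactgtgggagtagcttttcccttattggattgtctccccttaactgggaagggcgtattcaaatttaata
Sult1d1: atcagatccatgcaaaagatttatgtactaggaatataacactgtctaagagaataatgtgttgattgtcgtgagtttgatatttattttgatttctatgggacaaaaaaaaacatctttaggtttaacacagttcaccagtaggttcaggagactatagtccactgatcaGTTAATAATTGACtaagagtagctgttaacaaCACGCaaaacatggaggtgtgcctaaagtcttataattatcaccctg
Ugt1a10: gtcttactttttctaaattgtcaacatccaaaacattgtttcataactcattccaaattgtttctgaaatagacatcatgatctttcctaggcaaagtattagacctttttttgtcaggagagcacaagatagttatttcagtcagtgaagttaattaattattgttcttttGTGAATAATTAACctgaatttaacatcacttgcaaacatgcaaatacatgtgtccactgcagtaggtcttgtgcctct
Ugt8a: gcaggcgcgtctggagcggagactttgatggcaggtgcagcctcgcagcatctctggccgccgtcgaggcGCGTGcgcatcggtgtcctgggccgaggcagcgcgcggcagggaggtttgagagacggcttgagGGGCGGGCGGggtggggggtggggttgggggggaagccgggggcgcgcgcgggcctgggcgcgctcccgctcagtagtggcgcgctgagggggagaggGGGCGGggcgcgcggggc
Ugt3a1: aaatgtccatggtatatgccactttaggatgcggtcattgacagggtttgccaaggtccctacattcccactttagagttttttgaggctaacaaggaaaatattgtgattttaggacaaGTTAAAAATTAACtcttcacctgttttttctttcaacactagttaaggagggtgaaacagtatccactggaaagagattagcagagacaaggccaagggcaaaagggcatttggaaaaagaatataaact
Ugt2b38: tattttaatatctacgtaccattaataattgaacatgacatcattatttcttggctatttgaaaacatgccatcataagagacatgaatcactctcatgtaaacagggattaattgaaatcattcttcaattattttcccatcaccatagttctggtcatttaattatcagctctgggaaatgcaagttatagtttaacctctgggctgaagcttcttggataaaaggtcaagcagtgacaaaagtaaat

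The antioxidant response element core stood 121 to 113 bases before the start of Gsta3. Alpha-class GST genes are known targets of NRF2, the product of Nfe2l2. The core was also in the windows of Gstm5 and Mgst1, so in 3 of 19 members, while 10.16% of all 32851 windows held it. A match to the HNF1 element was present in Ugt1a10, Sult1d1 and Ugt3a1, hence 3 of 19 members against 1.239% of all windows, with the limit on the start of Ugt3a1 given above. These 3 members did not move together with AAI, as Ugt3a1 was lower and the other two were higher. The xenobiotic response element core was in 6 of 19 members (28.16% of all windows), the GC box in 6 (32.74%) and the DR1 element, a direct repeat bound by HNF4A and PPARA, with at most 2 mismatches in 0 (3.236%). Ugt8a held 3 GC boxes, of which 2 overlap, and a xenobiotic response element core, and the window of Ugt2b38 held no match to any of these letters. A match is a description of the letters and not a bound site.

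Overexpression of hKLF6 was compared with control in normal PT, first without AAI. Of 14 members compared, 3 were higher in hKLF6OE (7.84% of all 4041 genes) and 4 were lower (9.33%). The median difference was -0.02 for the members and -0.03 for all genes. With AAI, 1 of 12 members was higher (6.32% of all 3942 genes) and 6 were lower (7.74%), with medians of -0.19 and 0.01. These comparisons use the same 4 mice as the AAI comparison, and a difference between 2 mice cannot be told apart from a difference between genotypes.

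Sult1d1 was the only member higher in hKLF6OE both without and with AAI. It measured 1.37 in control and 2.21 in hKLF6OE, a difference of 0.44, and 2.45 against 3.53 with AAI, a difference of 0.39. All 5 normal PT clusters passed 0.2 in both comparisons. Gstm5, a mu-class GST, was higher without AAI, at 0.159 against 0.579, in 5 of 5 normal PT clusters, and its difference was positive in 15 of the 16 clusters outside the PT (median 0.42). With AAI its values were 0.169 and 0.244. Gstm5 of the untreated hKLF6OE mouse was also the highest of the 4 mice in InjuredPT-A, at 2.34 against 0.366 to 0.609. That column is sparse, with 40.85% of genes at 0, as is the control column with 62.62%, against 22.53% and 22.19% in the AAI-treated mice. Gstt1 was higher without AAI, at 0.331 against 0.596.

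Without AAI, 4 of 5 UGT members compared were lower in hKLF6OE, and with AAI 5 of 5, beside 9.33% and 7.74% of all genes. The sets were not the same, as Ugt2b37 was compared only without AAI and Ugt1a10 only with AAI. After centring on the median of all genes, 3 members were lower without AAI instead of 4. The summed PT marker level was also lower, at 265.5 in control and 242 in hKLF6OE without AAI and 223.4 and 185.2 with AAI, and its part was not tested. Ugt1a10 was too low to be compared without AAI and went the other way, at 0.00228 in control and 0.304 in hKLF6OE, with 4 of 5 clusters past 0.2. Ugt3a2 measured 4.05 in control and 2.71 in hKLF6OE without AAI (difference -0.44), past 0.2 in all 5 clusters, and 3.99 and 3.09 with AAI (-0.29), past 0.2 in 4 of 5. Ugt2b38 measured 4.64 and 3.26 without AAI (-0.40) and 3.56 and 2.58 with AAI (-0.35), with 4 of 5 clusters past 0.2 each time. Ugt8a measured 2.57 and 2.06 without AAI and 3.30 and 2.69 with AAI, a difference of -0.22 each time, past 0.2 in 3 of 5 clusters both without and with AAI. Ugt2b37 was lower without AAI, at 0.563 against 0.221, mainly in PT-S3-3 (1.65 against 0.637).

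With AAI the lower genes also included Gstt2, Ugt3a1 and Ugt1a10. Gstt2 measured 2.04 in control + AAI and 1.11 in hKLF6OE + AAI, a difference of -0.53 that held in all 5 clusters, whereas without AAI it measured 2.60 and 2.74. Ugt3a1 measured 1.30 and 0.752, again past 0.2 in all 5 clusters. Without AAI its difference was -0.20, just short of the limit. Ugt1a10 measured 0.762 and 0.523.

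Among cofactor genes, Gclc, Gclm and Gss were lower in hKLF6OE without AAI, which is 3 of 9 beside 9.33% of all genes, and 0 of 9 were higher beside 7.84%. Gclc, the catalytic subunit of glutamate-cysteine ligase that sets the rate of glutathione synthesis, measured 13.7 in control and 5.59 in hKLF6OE without AAI, and 8.10 and 8.00 with AAI. With AAI the list gave Gsr higher and Papss2 lower. Of 9 other conjugating enzymes, Inmt was higher and Acsm2 lower without AAI, and 6 of 9 were lower with AAI (7.74% of all genes), namely Nat8, Inmt, Glyat, Acsm1, Acsm2 and Acsm5. Among regulators, 0 of 5 were called without AAI, and Ppara was lower with AAI, at 10.7 against 8.02.

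Ugt1a10 stood apart in the control mouse. Its mean in normal PT was 0.00228 there, against 0.762 in control + AAI, 0.304 in hKLF6OE and 0.523 in hKLF6OE + AAI, and it was at exactly 0 in 20 of the 23 clusters of that mouse. Among 6074 genes at 0.2 or more in each of the other 3 mice, only Ugt1a10 and Aff3 were more than 20-fold below the lowest of the other mice in control. The same rule found 0 genes in control + AAI, 0 in hKLF6OE and 1 (Ttr) in hKLF6OE + AAI. This rule was chosen after the values were seen. The difference between control and the other 3 mice covers both genotypes and both treatments, the labels give the strain as mixed, and AAI, genotype and the individual mouse cannot be told apart in it.

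Gene structure also limits what Ugt1a10 stands for. In the GENCODE annotation of GRCm38 it spans chr1:88055388-88219004 (plus strand, 163.6 kb), and 90.58% of that span is shared with other genes of the same strand, among them 8 of the Ugt1a family, whose members use separate first exons and common later exons. Its longest transcript was 96.49% identical to that of Ugt1a9 over 2196 bases. Ugt1a7c, the other Ugt1 row of the table, stayed at 0.0682 in control, 0.107 in control + AAI, 0.0705 in hKLF6OE and 0.0753 in hKLF6OE + AAI.

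Near-identical copies concern a few other members, whose reads the counting may have split or dropped. Gsta2 was 97.24% identical to Gsta1 over 870 bases, Ugt2b38 was 95.54% identical to Ugt2b5, and Ugt2b37 was 93.28% identical to Ugt2b38. Ugt3a1 and Ugt3a2 were 91.66% identical over 2243 bases, Gstm1 was 89.47% identical to Gstm3, Sult2a3 was 93.42% identical to Sult2a5, and Sult1c2 was 93.86% identical to a Sult1c2 pseudogene over 277 bases. For Sult1d1, Gstt2, Gstz1, Gsta3, Ugt8a and Mgst1 the search found no such match among the genes of these families.

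Position in the genome groups some of the genes that moved. Ugt2b37 (chr5:87240493-87254804), Ugt2b38 (chr5:87409942-87424203) and Sult1d1 (chr5:87554645-87569027) lie on the same strand of chromosome 5. With AAI and with hKLF6 overexpression Ugt2b38 was lower and Sult1d1 was higher. Ugt3a1 (chr15:9276888-9315032) and Ugt3a2 (chr15:9335550-9370955) adjoin on chromosome 15, and AAI called Ugt3a1 alone. Gstm5, Gstm2 and Gstm1 lie within chr3:107895821-108017973, Gstm5 on the plus strand and the others on the minus strand, and hKLF6OE without AAI called Gstm5 alone.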

How the data were processed

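Nuclei of kidney cortex from 4 mice, 1 per group, were sequenced by droplet snRNA-seq. Per the labels and methods, reads were aligned to mm10 and tallied over introns as well as exons in Cell Ranger, low-quality nuclei were removed, and clusters were made in Seurat. The deposited signal values are linear cluster means per mouse, made by the authors, and each of the 92 columns sums to 10000. The function that made them and any removal of doublets were not given in the sources used here. Of 19632 rows, 23 with date-like names were left out. Cluster names followed the order of the sheets in the study's marker workbook.

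Groups came from the genotype and treatment labels. Differences were taken on log2(value + 1), at a larger side of at least 0.5 and a size of at least 0.2, in Python 3.11.15 with numpy 2.4.6 and pandas 2.3.3. No p-value was computed. Named were members with a mean of at least 2 in any cluster, up to 8 called members in each direction of a comparison, and members past 0.2 in opposite directions. The members, lists and promoter motifs were chosen with earlier results of these data known, and named members outside that rule (among them Mgst1, Gsta2 and Ugt2b37 with AAI) were chosen after their values were seen. Annotation was GENCODE for GRCm38, promoters were from RefSeq, and transcripts were compared with blastn 2.17.0. Calling was tested on simulated data. Alternatives were another pseudocount, filter, threshold, reference and centring, and leaving out mice. A call for 1 further gene of the lists is not reported here.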

Additional observations from a re-analysis of the deposited data

How the results depend on the processing

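The limits of these values are the single mouse per group, the number of nuclei behind each column, which was not used here, and overlapping Ugt1a genes. No paired analysis was possible because the groups hold 1 mouse each and share no replicate numbers. Comparisons of clusters within a mouse are paired differences given without a test. Of 59 alternative counts, 39 stayed within 1.5 times the reported one. A threshold of 0.5 left 2 members called in InjuredPT-A, 1 in InjuredPT-B, 0 with AAI, 0 for hKLF6OE without AAI, 1 for hKLF6OE with AAI and 0 for PT-S3, and a threshold of 1 left 0 in each of the 6 comparisons. A larger side of at least 2 left 4 in InjuredPT-A, 3 in InjuredPT-B, 4 with AAI and 4 for hKLF6OE without AAI. Asking each of the 5 normal PT clusters to pass left 2 members for hKLF6OE without AAI and 3 with AAI. A pseudocount of 0.1 gave 8 for PT-S3 instead of 5. With single mice or genotypes, or with a mouse left out, the counts were 9 to 12 in InjuredPT-A, 9 in InjuredPT-B, 9 to 11 with AAI (11 in the control genotype alone against the 7 shared) and 5 to 7 for PT-S3. The share of higher calls moved with centring from 37.5% to 0% in InjuredPT-A, from 42.9% to 14.3% in InjuredPT-B and from 57.1% to 40% with AAI. Without Ugt1a10, an alternative added after the data were seen, 6 members were called with AAI. The fewer calls at higher thresholds and filters follow from their construction, and the cause of the other changes was not tested.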

Other observations

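Some members differed outside the PT in ways not described above, and all are values of single mice with 16 clusters each. Gsta3 was lower in hKLF6OE + AAI than in control + AAI in 16 of the 16 clusters outside the PT, by at least 0.2 in 14 of them (median -0.35), while in normal PT the difference was -0.09. Gstm5 was lower with AAI in the hKLF6OE genotype in 15 of 16 clusters outside the PT (median -0.32) and in all 5 normal PT clusters, and in the control genotype 8 were positive and 8 negative (median -0.01). Gstt1 was lower in hKLF6OE + AAI than in control + AAI in 14 of 16 clusters outside the PT (median -0.28). Mgst3, a microsomal GST with peroxidase activity, was higher in hKLF6OE than in control in 14 of 16 of these clusters without AAI (median 0.14) and lower in 11 of 16 with AAI (median -0.08). These clusters share a library within each mouse, and the part of RNA from other cell types in the differences was not tested.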
